A study of Mus musculus with 39 samples.

Results

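Genes for collagens, basement membrane proteins, elastic fibre proteins, collagen-crosslinking enzymes and matrix glycoproteins were followed in mouse testis. The mutant lines were designed to delete Prkar1a in different somatic lineages. The genes came from a list of 39 symbols, and a gene entered when a probe set on the array carried that single symbol. Where a gene had several such probe sets, it was represented by the brightest, judged by the mean of the 39 arrays. This gave 37 of the 22180 genes on the array, and all 37 were among the 19007 genes bright enough to be tested. No value is given for fibrillin-1 (Fbn1), for which no probe set carried that symbol alone, or for Loxl2, whose probe sets also carried the symbol of another gene. The 37 genes were read in 6 groups by role: 5 fibrillar collagens, 14 basement membrane genes, 7 other collagens, 4 genes of elastic fibres and fibulins, 2 crosslinking enzymes and 5 glycoproteins and matricellular proteins.

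Fibrillar collagens are wound as triple helices, trimmed outside the cell and packed into the fibrils that give interstitial tissue its strength. Lysyl oxidases then oxidise lysines on collagen and elastin so that neighbouring molecules become covalently linked. Basement membranes are thin sheets built from a laminin network and a collagen IV network that nidogens and perlecan bridge, and in the testis such a sheet surrounds each seminiferous tubule between the Sertoli and germ cells inside and the contractile peritubular myoid cells outside.

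RNA from the whole testis of 39 mice was hybridised to Affymetrix GeneChip arrays, 1 array per mouse. Prkar1a encodes a regulatory subunit that holds protein kinase A inactive, and the mutants combined a floxed Prkar1a gene with a Cre transgene. The prKO line carried Sf1:Cre, whose promoter is active in the somatic precursors of the gonad and in the adrenal cortex. The srKO line carried Amh:Cre, active in Sertoli cells, and the lrKO line Cyp11a1:Cre, active in steroid-producing cells. Wild-type mice (WT) served all 3 lines, so the comparisons with WT share control arrays. At 2 weeks of age there were 8 WT, 4 prKO, 4 srKO and 4 lrKO mice, and at 2 months 8 WT, 3 prKO, 4 srKO and 4 lrKO mice. Each Cre acts in some cell types only, so RNA of the whole testis also holds the transcripts of cells that kept Prkar1a. Levels are log2 intensities, which cannot be compared between genes, and changes are differences on the log2 scale with their standard error. A gene is said to rise or fall where the limma test gave a Benjamini-Hochberg adjusted p under 0.05 over all 19007 genes. In RNA of a whole organ, fewer cells of a type and less RNA per cell cannot be told apart.

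The targeted gene Prkar1a fell by 0.78 ± 0.07 in prKO (adjusted p = 4.5e-07) and by 0.48 ± 0.07 in srKO (adjusted p = 0.0022) at 2 weeks. At 2 months it fell by 0.30 ± 0.09 in prKO (adjusted p = 0.0078) but was higher in the arrays labelled srKO, by 0.24 ± 0.08 (adjusted p = 0.03). In lrKO it differed from WT by 0.05 at 2 weeks and 0.04 at 2 months, neither past the threshold, so the level in whole testis did not check those labels. The WT arrays themselves were split for Prkar1a. At 2 months WT replicates 1 to 4 read 8.61 to 8.81, and WT replicates 5 to 8 read 8.95 or more. The prKO arrays at 8.63 and 8.66 lay within the range of the former, and the lowest srKO array (8.98) within that of the latter. At 2 weeks these WT sets read 8.84 to 8.95 and 8.99 to 9.14, above every prKO and srKO array. No change of Prkar1a against either set alone is given. Labels name the testis as the tissue, but that for the extraction of RNA speaks of adrenal glands. Over the 39 arrays the germ cell gene Ddx4 read 10.73 to 11.89 and the Sertoli cell gene Sox9 7.92 to 10.31, and the adrenal genes Cyp11b2 (4.39 to 5.16) and Mc2r (3.68 to 4.83) stayed near the filter value of 4.62. Other genes of the adrenal cortex did not: Cyp21a1, the steroid 21-hydroxylase, ranged over 4.26 to 9.83 and Cyp11b1, the 11-beta-hydroxylase, over 4.57 to 8.18. Cyp21a1 had a mean of 8.61 in prKO against 4.39 in WT at 2 weeks (4.22 ± 0.23, adjusted p = 4.2e-10). At 2 months its mean was 4.57 in WT, and it rose in prKO (3.37 ± 0.29, adjusted p = 3.8e-08), srKO (1.82 ± 0.26, adjusted p = 3.4e-05) and lrKO (1.34 ± 0.26, adjusted p = 0.034). Cyp11b1 rose in prKO at 2 months (2.00 ± 0.30, adjusted p = 1.9e-05), from a WT mean of 4.83.

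Some arrays stood apart. WT replicate 4 at 2 weeks had the highest level of the 8 WT arrays in 33 of the 37 genes, and its 8 peritubular myoid and smooth muscle markers had a mean of 10.06, 1.37 above the WT mean. Of the 3 prKO arrays at 2 months, replicate 3 was the highest in 35 of the 37 genes. Replicate 1 of that group read 11.70 for Adam7, an epididymal gene that read 4.25 and 4.47 in the other prKO arrays, and its 4 adipose markers had a mean of 8.07 against 5.40 and 6.78. Some results that rest on these arrays are given with and without them. Those of the related lists and the cell type markers are given with all arrays only.

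Promoters are shown for 3 genes on which the results turn: Col1a2, a fibrillar collagen that rose in prKO at both ages and in srKO at 2 months, Fbln5, a fibulin that passed the threshold in prKO at both ages and in no other line, and Col18a1, a basement membrane gene that rose in prKO and srKO at both ages. The sequences are the 250 bases before the start in the RefSeq table for GRCm38.p6, from 5′ to 3′ on the strand of the gene, at chr6:4505368-4505617 (plus strand), chr12:101819120-101819369 (minus strand) and chr10:77166531-77166780 (minus strand). Capitals mark the letters CCAAT, the CCAAT box, or its reverse complement ATTGG, and TGACG, the core of a cAMP response element. For Fbln5 and Col18a1 the first of 2 starts in the table is shown.
Col1a2: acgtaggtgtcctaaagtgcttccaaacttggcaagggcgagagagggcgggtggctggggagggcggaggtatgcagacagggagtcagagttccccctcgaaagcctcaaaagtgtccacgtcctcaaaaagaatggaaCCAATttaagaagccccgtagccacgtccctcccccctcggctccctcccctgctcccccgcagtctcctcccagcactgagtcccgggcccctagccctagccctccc
Fbln5: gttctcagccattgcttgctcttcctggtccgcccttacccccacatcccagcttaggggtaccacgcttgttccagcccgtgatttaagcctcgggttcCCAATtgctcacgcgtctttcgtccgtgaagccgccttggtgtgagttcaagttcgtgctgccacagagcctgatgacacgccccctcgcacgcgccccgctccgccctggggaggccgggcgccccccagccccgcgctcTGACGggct
Col18a1: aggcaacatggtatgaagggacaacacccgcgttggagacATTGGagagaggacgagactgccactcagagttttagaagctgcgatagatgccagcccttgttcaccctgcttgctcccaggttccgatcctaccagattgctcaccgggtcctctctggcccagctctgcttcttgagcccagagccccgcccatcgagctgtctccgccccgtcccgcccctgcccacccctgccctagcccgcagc
Counted back from the start, Col1a2 holds CCAAT from base -109 to -105, Fbln5 from -150 to -146 and Col18a1 on the other strand from -210 to -206, and Fbln5 also holds TGACG from -9 to -5. The table held promoters for 26 of the 39 symbols. Searched on both strands, CCAAT was found in 8 of these 26 against 34.5% of all 27025 promoters of this length, and TGACG in 2 (Fbln5 and Lama5) against 17.9%. The complete site TGACGTCA, which contains TGACG, was found in 0 against 1.62%, TATAAA in 2 against 13.0% and GGGCGG in 16 against 32.9%. A match describes the letters and shows no binding.

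At 2 weeks the matrix genes of prKO testes stood above WT, including all fibrillar collagens, all elastic fibre genes and both crosslinking enzymes measured, while 1 of 7 laminin genes passed the threshold. Of the 37 genes 23 rose and 0 fell by limma, with 28 higher and 0 lower at an unadjusted p under 0.05. Over all genes tested, 7.90% were called higher and 2.59% lower. The median change of the 37 genes was 0.71, against -0.01 over all genes. By role, 5 of 5 fibrillar collagens rose, 6 of 14 basement membrane genes, 5 of 7 other collagens, 4 of 4 elastic fibre genes, 2 of 2 crosslinking enzymes and 1 of 5 glycoproteins. Without WT replicate 4 the number that rose was 30, and against WT replicates 1 to 4 alone, which include it, 14.

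**Figure D1:**
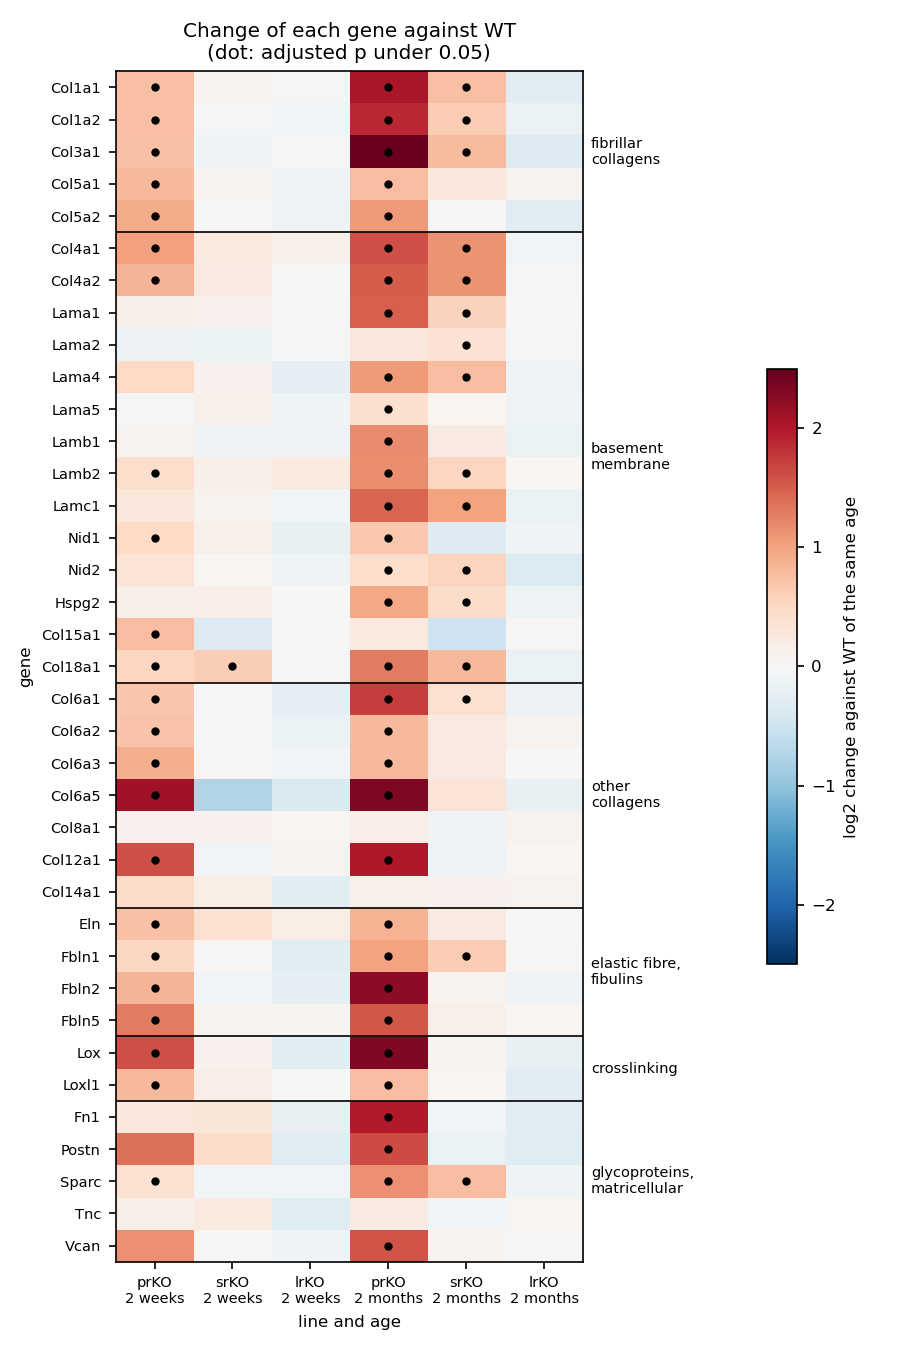
Log2 change of each of the 37 genes (one per line of the map, by role) against WT of the same age in prKO, srKO and lrKO at 2 weeks and 2 months, shown as color; a dot marks an adjusted p under 0.05. The prKO columns hold 23 dots at 2 weeks and 32 at 2 months, the srKO columns 1 and 16, and the lrKO columns 0 and 0.

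The fibrillar collagens of prKO rose by similar amounts at 2 weeks, with a median of 0.75. Col5a2, a chain of collagen V, which helps to start fibrils, read 8.64, 8.42, 8.37 and 8.65 in the 4 prKO arrays against a lowest, median and highest WT level of 6.94, 7.47 and 8.72. It rose by 0.92 ± 0.22 (1.90-fold, adjusted p = 0.0092). All prKO arrays stood above 7 of the 8 WT arrays and below WT replicate 4. Its partner chain Col5a1 read 9.39, 8.83, 8.95 and 9.46 against 8.02, 8.24 and 9.14 in WT and rose by 0.82 ± 0.15 (1.76-fold, adjusted p = 0.0015). Col1a2, which encodes the alpha-2 chain of collagen I, read 12.11, 11.78, 11.70 and 12.11 against 10.97, 11.04 and 11.92 and rose by 0.75 ± 0.14 (1.68-fold, adjusted p = 0.0015). For both genes 2 prKO arrays exceeded every WT array and the other prKO arrays exceeded all but replicate 4. Col1a1, of collagen I, and Col3a1, of collagen III, rose by 0.75 ± 0.16 and 0.74 ± 0.17. Against WT replicates 1 to 4 alone the calls of Col3a1 (0.59, adjusted p = 0.12) and Col5a2 (0.66, adjusted p = 0.14) were lost.

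Among basement membrane genes the collagen IV chains changed most. Col4a1 read 9.50, 9.32, 9.21 and 9.65 in prKO against 8.10, 8.36 and 8.97 in WT and rose by 1.02 ± 0.12 (2.03-fold, adjusted p = 6.1e-06). Col4a2, which assembles with it, read 9.51, 9.25, 9.13 and 9.50 against 8.32, 8.45 and 8.87 and rose by 0.85 ± 0.09 (1.80-fold, adjusted p = 3.2e-06). For both, every prKO array lay above every WT array, replicate 4 included. Col15a1, a collagen that ties basement membranes to the interstitium, read 8.65, 8.05, 8.15 and 8.53 against 7.24, 7.47 and 8.22 and rose by 0.78 ± 0.15 (1.71-fold, adjusted p = 0.0019), with 2 prKO arrays above all WT arrays. Col18a1, the source of endostatin, rose by 0.53 ± 0.08 and nidogen-1 (Nid1) by 0.49 ± 0.11. Against WT replicates 1 to 4 alone the calls of Col15a1 (0.56, adjusted p = 0.062) and Nid1 (0.36, adjusted p = 0.13) were lost.

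Of the 7 laminin chain genes measured, the beta chain gene Lamb2 alone passed the threshold at 2 weeks, with a rise of 0.43 ± 0.07 (adjusted p = 0.00041). The alpha chain genes Lama2 and Lama5 had the opposite sign without passing. Lama2, the alpha chain best known from muscle basement membranes, read 10.25, 10.06, 9.90 and 10.09 against 9.95, 10.29 and 10.58 in WT, a difference of -0.15 ± 0.11 (adjusted p = 0.4) with overlapping groups, and Lama5 differed by -0.04 ± 0.12. Lama1 differed by 0.14 ± 0.08, Lamb1 by 0.09 ± 0.13, Lamc1, the gamma chain of most laminins, by 0.28 ± 0.12 and Lama4, a laminin chain of vessel walls, by 0.49 ± 0.21. Perlecan (Hspg2) differed by 0.15 ± 0.13 and nidogen-2 (Nid2) by 0.35 ± 0.12. Without WT replicate 4, Lama4 (0.68, adjusted p = 0.00011), Lamc1 (0.36, adjusted p = 0.0087) and Nid2 (0.43, adjusted p = 0.0042) passed as well, which made 9 of 14 basement membrane genes.

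Among the other collagens Col6a5, an alpha chain of the microfibrillar collagen VI, had the largest change of the 37 genes in prKO at 2 weeks. It read 9.90, 9.44, 9.44 and 9.88 in prKO against 7.08, 7.35 and 9.22 in WT and rose by 2.10 ± 0.28 (4.28-fold, adjusted p = 4.6e-05). The WT value of 9.22 was replicate 4, the next WT array stood at 7.70, and all prKO arrays lay above both. Col12a1, a collagen found along fibrils, read 9.43, 7.74, 8.20 and 9.64 against 6.70, 6.96 and 8.92 and rose by 1.62 ± 0.36 (3.07-fold, adjusted p = 0.0059). Of its prKO arrays 2 exceeded WT replicate 4 and the other two did not. Col6a3, a common chain of collagen VI, read 10.07, 9.51, 9.60 and 9.92 against 8.50, 8.73 and 9.90 and rose by 0.91 ± 0.19 (1.88-fold, adjusted p = 0.0032). Its partner chains Col6a1 and Col6a2 rose by 0.69 ± 0.15 and 0.71 ± 0.15. Col8a1 (0.11 ± 0.12) and Col14a1 (0.45 ± 0.27) did not pass. The calls of Col6a1, Col6a2, Col6a3 and Col12a1 were lost against WT replicates 1 to 4 alone, at adjusted p-values of 0.11, 0.1, 0.074 and 0.13.

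Fibulin-5 (Fbln5), which links elastin to cells, read 10.59, 10.16, 10.17 and 10.69 in prKO against 8.71, 9.07 and 9.59 in WT and rose by 1.30 ± 0.14 (2.47-fold, adjusted p = 2.6e-06). The groups did not overlap. Fibulin-2 (Fbln2), found in basement membranes and elastic tissue, read 7.61, 7.38, 7.43 and 8.17 against 6.57, 6.65 and 7.51 and rose by 0.85 ± 0.15 (1.80-fold, adjusted p = 0.00093), with 2 prKO arrays above all WT arrays. Elastin (Eln) read 10.44, 9.91, 10.11 and 10.20 against 9.15, 9.44 and 9.66 and rose by 0.73 ± 0.12 (1.66-fold, adjusted p = 0.00048), with no overlap. Fbln1 rose by 0.52 ± 0.15 (adjusted p = 0.032), a call lost without any single one of WT replicates 5, 6, 7 and 8 or prKO replicates 1, 2 and 4 (adjusted p = 0.052 to 0.11).

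Both crosslinking enzymes rose. Lysyl oxidase (Lox) read 9.39, 8.70, 9.04 and 10.03 in prKO against 7.08, 7.61 and 8.98 in WT and rose by 1.61 ± 0.27 (3.06-fold, adjusted p = 0.00042). The WT value of 8.98 was replicate 4, the next WT array read 7.80, and 3 of 4 prKO arrays exceeded both. Its relative Loxl1, which acts mainly on elastin, read 9.23, 9.01, 8.96 and 9.33 against 8.01, 8.32 and 8.75 and rose by 0.82 ± 0.11 (1.77-fold, adjusted p = 5.1e-05), with no overlap between the groups.

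The glycoproteins varied widely within WT, and 1 of 5 rose. Periostin (Postn), a matricellular protein of fibrous tissue, read 10.33, 9.17, 9.79 and 9.93 in prKO against 7.41, 8.06 and 10.95 in WT, a difference of 1.38 ± 0.51 (adjusted p = 0.093). Versican (Vcan), a large proteoglycan, read 7.44, 6.62, 7.14 and 7.90 against 5.39, 5.91 and 8.05, a difference of 1.14 ± 0.37 (adjusted p = 0.052). The highest WT value was replicate 4 for both, and it lay above all prKO arrays. Without that array Postn (1.74, adjusted p = 0.0027), Vcan (1.42, adjusted p = 0.0004) and fibronectin (Fn1, 0.35, adjusted p = 0.033) passed, as did Col14a1 (0.64, adjusted p = 0.032) of the other collagens. Osteonectin (Sparc), a collagen-binding protein, read 11.93, 11.84, 11.86 and 12.03 against 11.38, 11.57 and 11.63 and rose by 0.39 ± 0.06 (1.31-fold, adjusted p = 0.00014), above every WT array. Vcan also passed without prKO replicate 2 (1.36, adjusted p = 0.042). With all arrays Fn1 differed by 0.26 ± 0.14 and tenascin-C (Tnc) by 0.14 ± 0.26.

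**Figure D2:**
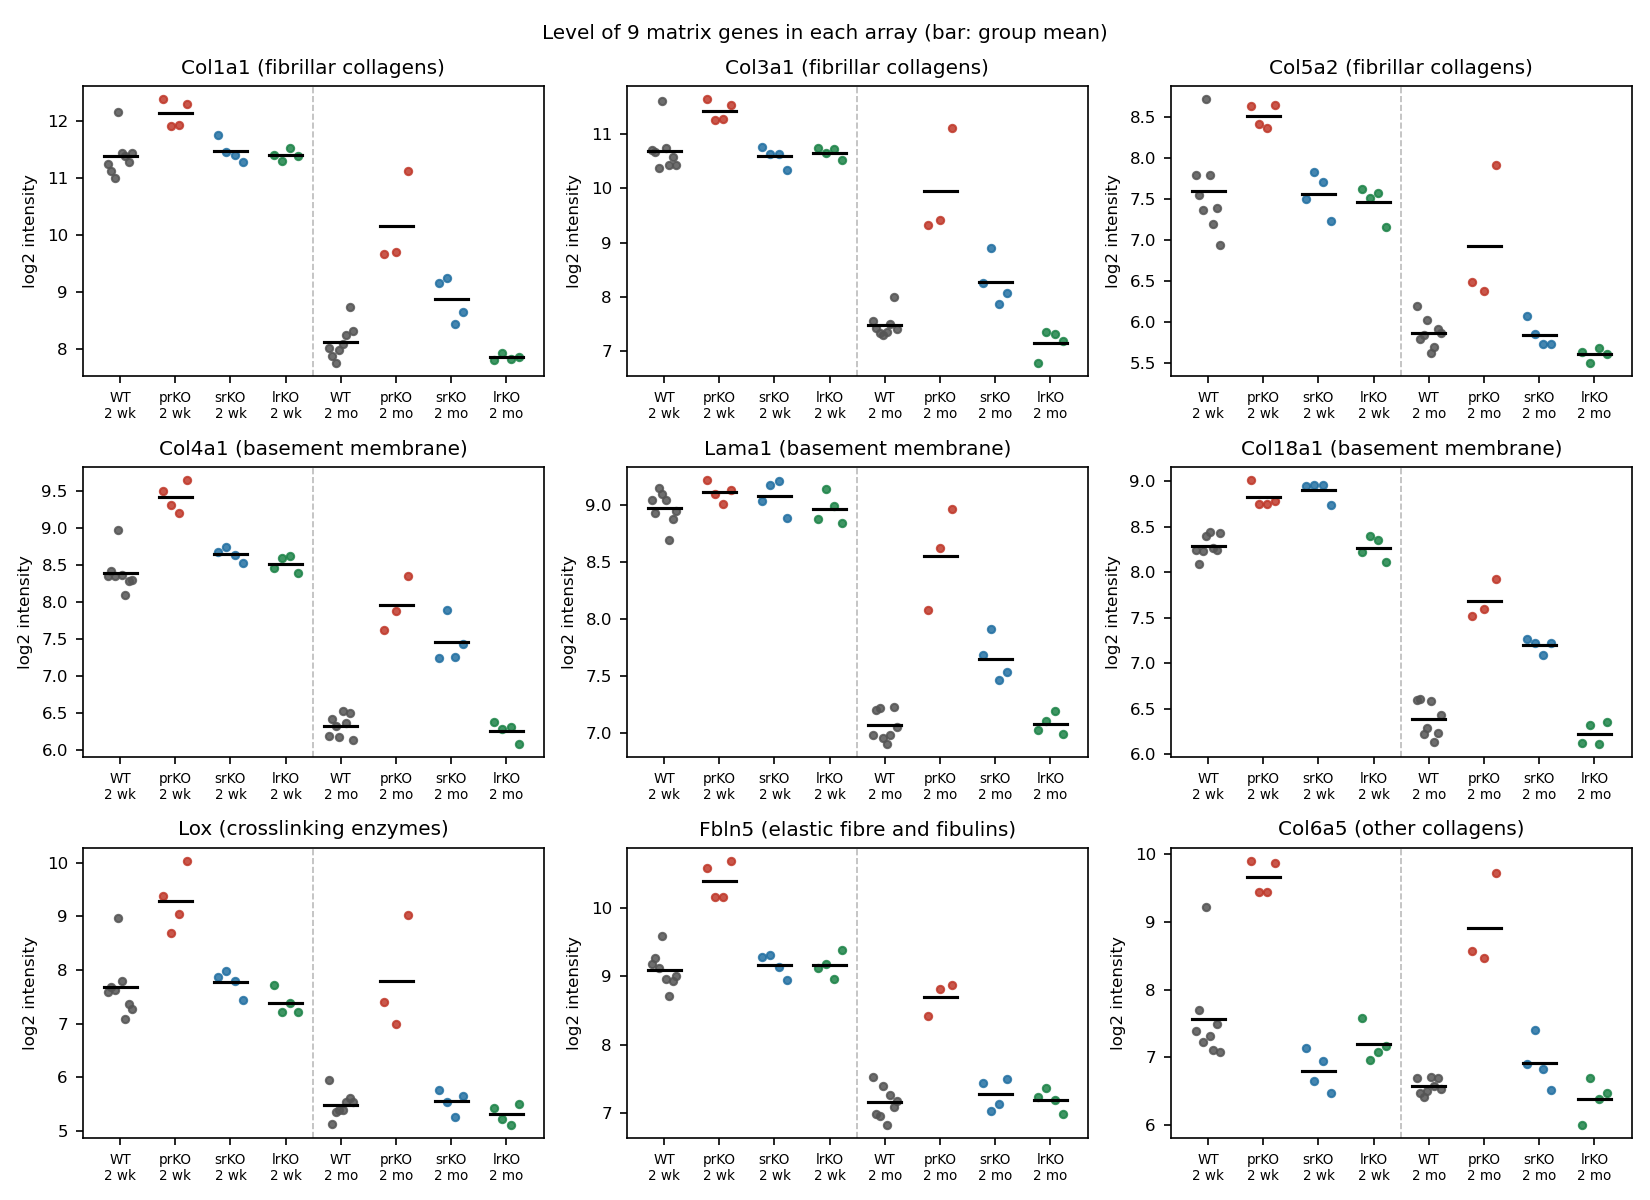
Log2 intensity of 9 genes in each array by genotype and age; each point is 1 mouse and each bar a group mean. At 2 weeks the prKO arrays of Fbln5 (10.16 to 10.69) lie above all WT arrays, whereas those of Lama1 (9.01 to 9.22) overlap WT (8.69 to 9.15).

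Genes that make and process collagen were also higher in prKO at 2 weeks, where 7.90% of all genes were called higher and 2.59% lower. Of 22 genes of collagen synthesis and processing 11 rose and 0 fell (18 higher and 0 lower at an unadjusted p under 0.05), with a median of 0.33. The largest changes were in Pcolce, an enhancer of procollagen cleavage (1.18 ± 0.13, adjusted p = 4.1e-06), and in Crtap (0.73 ± 0.14, adjusted p = 0.0017) and P3h3 (0.68 ± 0.13, adjusted p = 0.0013), of the prolyl 3-hydroxylase family and its partners. Of 42 other matrix genes 10 rose and 0 fell (16 and 1 at an unadjusted p under 0.05), with a median of 0.19. Efemp1, a fibulin relative, rose by 1.51 ± 0.28 (adjusted p = 0.0014), Tnxb, tenascin-X, by 1.01 ± 0.18 (adjusted p = 0.00087) and Col11a1, another fibrillar collagen, by 1.00 ± 0.15 (adjusted p = 0.00016).

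Of 23 matrix receptor genes 6 rose and 1 fell in prKO at 2 weeks, with a median of 0.13. Over all genes 7.90% were called higher and 2.59% lower. The proteoglycan gene Sdc2 rose by 0.72 ± 0.15 and the integrin genes Itgb5 and Itga8 by 0.66 ± 0.10 and 0.64 ± 0.09. The gene that fell was the collagen receptor Ddr1 (-0.29 ± 0.09, adjusted p = 0.045), named after its value was seen. Of 19 genes of TGF-beta and PDGF signalling, which stimulates matrix synthesis in many tissues, 11 rose and 0 fell (12 and 1 at an unadjusted p under 0.05), with a median of 0.49. The ligand genes Tgfb1 and Tgfb2 rose by 0.87 ± 0.07 (adjusted p = 2e-07) and 0.80 ± 0.18 (adjusted p = 0.0065), and Ccn1, a matricellular protein gene, by 0.78 ± 0.19 (adjusted p = 0.013).

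Markers of several cell types moved beside these genes in prKO at 2 weeks, where 7.90% of all genes were called higher and 2.59% lower. Of 9 interstitial fibroblast and stroma markers 4 rose and 1 fell, with means per array of 8.92 to 9.24 against 8.20 to 9.25 in WT, and the matrix protein genes Dpt and Lum led them with 2.17 ± 0.39 and 1.69 ± 0.31. Of 9 endothelial markers 4 rose (7.17 to 7.46 against 6.77 to 7.39), of 9 macrophage markers 5 rose (7.62 to 7.98 against 6.98 to 7.64), and 5 of 5 Leydig cell markers rose (10.60 to 11.10 against 8.18 to 9.15). Of 8 peritubular myoid and smooth muscle markers 1 rose (8.59 to 9.01 against 8.31 to 10.06), and among them Acta2 and Myh11 differed by -0.07 ± 0.12 and -0.07 ± 0.22. WT replicate 4 held the highest WT level of both (12.46 and 11.87). By medians prKO stood slightly above WT, at 11.74 against 11.68 for Acta2 and 10.46 against 10.40 for Myh11. Of 10 Sertoli cell markers 1 rose and 2 fell (9.14 to 9.43 against 9.34 to 9.55). Of 4 adipose markers 1 rose (5.70 to 6.15 against 5.08 to 6.56), of 3 adrenal cortex markers 1 (5.87 to 6.55 against 4.56 to 4.76) and of 4 epididymis markers 0 (5.08 to 6.24 against 4.94 to 5.70). The part of these cell types in the matrix result was not tested.

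**Figure D3:**
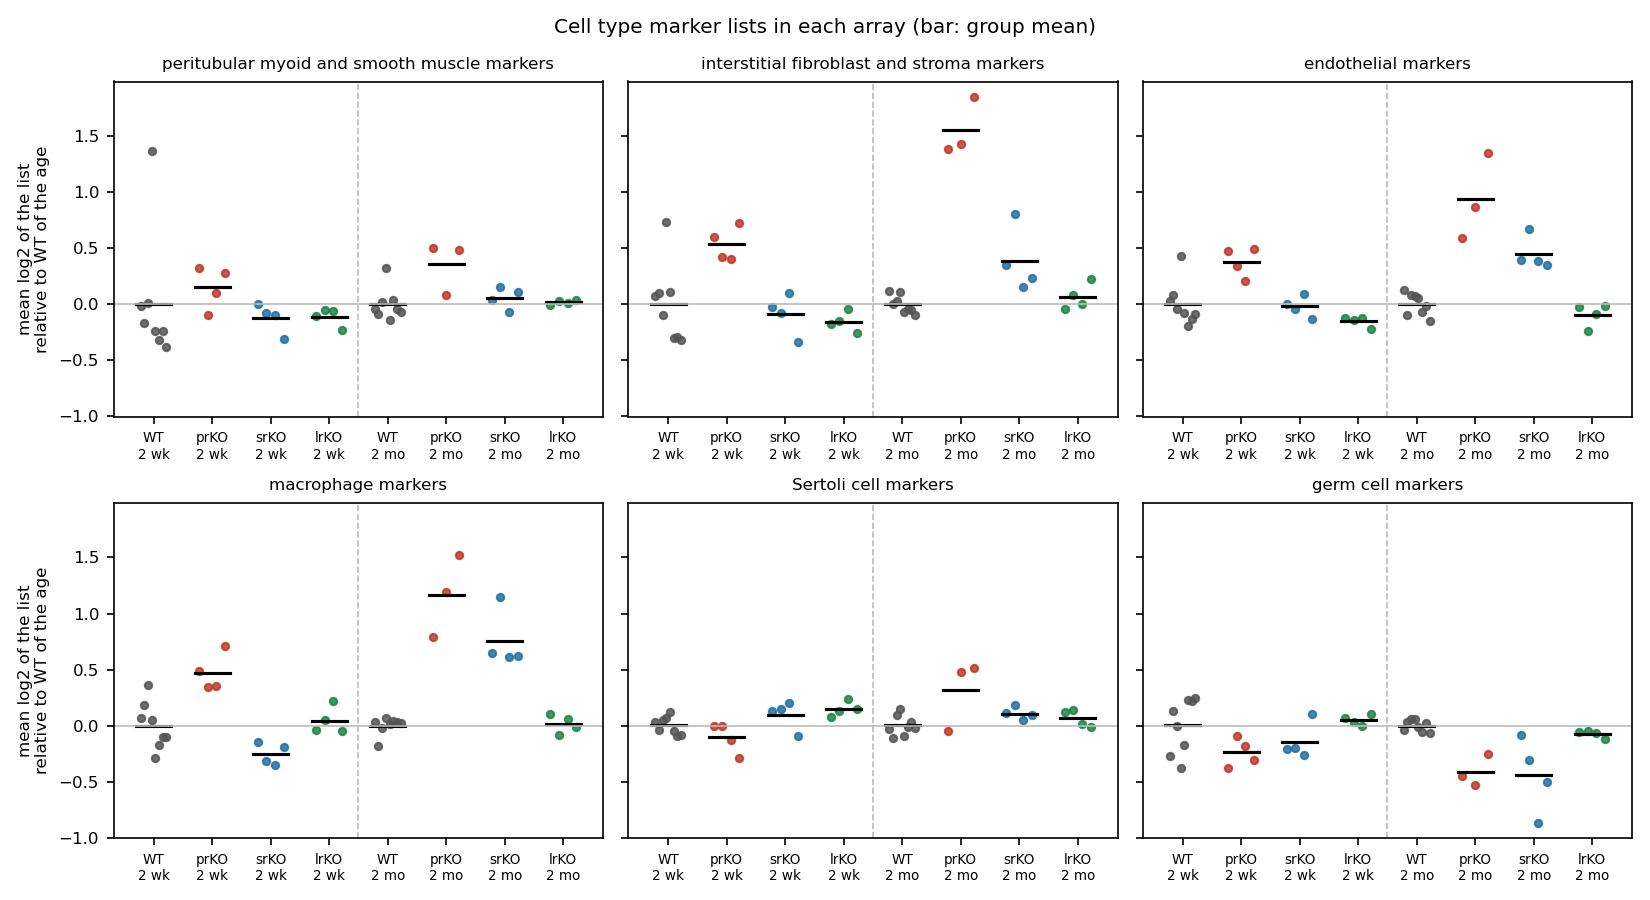
Mean log2 level of 6 lists of cell type markers in each array, relative to the mean of WT at the same age; each point is 1 mouse and each bar a group mean. WT replicate 4 at 2 weeks stands at 1.37 for peritubular myoid and smooth muscle markers, and the prKO arrays at 2 months stand at 1.38, 1.43 and 1.85 for interstitial fibroblast and stroma markers.

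At 2 months the prKO change took in nearly the whole list, now with laminins beside collagen IV and with fibronectin. Of the 37 genes 32 rose and 0 fell by limma (33 and 0 at an unadjusted p under 0.05). Over all genes tested, 26.0% were called higher and 22.4% lower. The median change of the 37 genes was 1.17, against 0.02 over all genes, or -0.10 when each array was centred on its median. By role, 5 of 5 fibrillar collagens rose, 12 of 14 basement membrane genes, 5 of 7 other collagens, 4 of 4 elastic fibre genes, 2 of 2 crosslinking enzymes and 4 of 5 glycoproteins. In 30 of the 37 genes the lowest prKO array exceeded the highest WT array, a count that was not made over all genes. Without replicate 1, the array highest in Adam7 and adipose markers, 33 genes rose, and without replicate 3, 29.

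Col3a1 read 9.32, 9.42 and 11.11 in the 3 prKO arrays at 2 months against a lowest, median and highest WT level of 7.29, 7.42 and 7.99, and rose by 2.47 ± 0.28 (5.54-fold, adjusted p = 7.7e-07). Col1a1 read 9.67, 9.70 and 11.13 against 7.75, 8.06 and 8.74 and rose by 2.04 ± 0.25 (4.12-fold, adjusted p = 1.9e-06). Col1a2 read 9.41, 9.58 and 10.63 against 7.72, 7.98 and 8.24 and rose by 1.89 ± 0.19 (3.71-fold, adjusted p = 2.1e-07). In each gene all prKO arrays lay above all WT arrays, and replicate 3 lay far above the other prKO arrays. The collagen V chains Col5a1 and Col5a2 rose by 0.78 ± 0.14 and 1.06 ± 0.21, or by 0.46 and 0.56 without replicate 3.

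In the basement membrane group Col4a1 read 7.63, 7.88 and 8.36 in prKO at 2 months against 6.13, 6.35 and 6.53 in WT and rose by 1.62 ± 0.14 (3.08-fold, adjusted p = 4.9e-08). Col4a2 read 7.49, 7.91 and 8.42 against 6.26, 6.42 and 6.69 and rose by 1.52 ± 0.14 (2.86-fold, adjusted p = 8.9e-08). Lama1, the laminin alpha chain of tubule basement membranes, read 8.08, 8.62 and 8.97 against 6.90, 7.02 and 7.23 and rose by 1.49 ± 0.13 (2.82-fold, adjusted p = 6.2e-08). The groups did not overlap in any of these genes. The other laminin genes Lamc1 (1.46 ± 0.19), Lamb1 (1.19 ± 0.15), Lamb2 (1.17 ± 0.14), Lama4 (1.07 ± 0.13) and Lama5 (0.40 ± 0.09) rose as well. So did Col18a1 (1.29 ± 0.11), Hspg2 (0.97 ± 0.15), Nid1 (0.68 ± 0.17) and Nid2 (0.43 ± 0.17). The call of Nid1 was lost without replicate 3 (0.33, adjusted p = 0.054). The call of Nid2 was lost without any single one of WT replicates 1, 2, 3, 4, 6 and 7 or prKO replicates 2 and 3 (adjusted p = 0.05 to 0.25).

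Lama2 and Col15a1 were the basement membrane genes of prKO that did not pass at 2 months. Lama2 differed by 0.29 ± 0.12 (adjusted p = 0.059), and by 0.41 (adjusted p = 0.016) without replicate 1, and it also passed without WT replicate 2 (adjusted p = 0.049). Col15a1, singled out after its values were seen, read 6.52, 6.64 and 8.39 against 6.80, 6.90 and 7.15 and differed by 0.25 ± 0.27 (adjusted p = 0.47). Replicates 1 and 2 lay below every WT array and replicate 3 above every one.

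Of the other collagens, Col6a5 read 8.57, 8.47 and 9.72 in prKO at 2 months against 6.41, 6.56 and 6.71 in WT and rose by 2.34 ± 0.21 (5.07-fold, adjusted p = 5.1e-08). Col12a1 read 8.50, 7.52 and 10.01 against 6.40, 6.68 and 6.84 and rose by 2.01 ± 0.29 (4.03-fold, adjusted p = 1.1e-05). Col6a1 read 9.42, 9.53 and 9.98 against 7.59, 8.01 and 8.17 and rose by 1.72 ± 0.13 (3.30-fold, adjusted p = 1.1e-08). No prKO array of these genes overlapped WT, and the 3 readings of Col12a1 spread over more than those of Col6a1. Col6a2 and Col6a3 rose by 0.81 ± 0.14 and 0.82 ± 0.15, the latter by 0.54 without replicate 3. Col8a1 (0.16 ± 0.13) and Col14a1 (0.13 ± 0.14) did not pass.

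Fbln2 read 7.58, 7.57 and 9.73 in prKO at 2 months against 5.89, 6.02 and 6.39 in WT and rose by 2.24 ± 0.29 (4.72-fold, adjusted p = 3.9e-06). Fbln5 read 8.42, 8.81 and 8.87 against 6.82, 7.13 and 7.53 and rose by 1.55 ± 0.14 (2.92-fold, adjusted p = 7e-08). In Fbln2 replicate 3 stood far above the other prKO arrays, whereas the readings of Fbln5 lay close together. Fbln1 read 7.38, 7.82 and 8.30 against 6.71, 6.82 and 6.96 and rose by 1.00 ± 0.14 (2.00-fold, adjusted p = 1e-05), and Eln rose by 0.86 ± 0.18. Lox read 7.40, 6.99 and 9.02 against 5.13, 5.47 and 5.95 and rose by 2.32 ± 0.27 (4.98-fold, adjusted p = 1e-06), with all prKO arrays above WT. Loxl1 read 7.53, 7.97 and 9.06 against 7.01, 7.45 and 7.58 and rose by 0.77 ± 0.20 (1.71-fold, adjusted p = 0.0033). Of its prKO arrays 2 exceeded every WT array, and the call was lost without replicate 3 (0.34, adjusted p = 0.058).

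Fibronectin (Fn1), on which cells assemble other matrix proteins, read 9.73, 9.12 and 11.48 in prKO at 2 months against 7.95, 8.14 and 8.32 in WT and rose by 1.98 ± 0.30 (3.93-fold, adjusted p = 2.1e-05). Postn read 8.15, 7.16 and 9.70 against 6.46, 6.67 and 7.09 and rose by 1.63 ± 0.32 (3.10-fold, adjusted p = 0.0003). Vcan read 6.10, 5.93 and 7.79 against 4.93, 5.03 and 5.17 and rose by 1.57 ± 0.24 (2.96-fold, adjusted p = 2.4e-05). All prKO arrays of these genes lay above WT, with replicate 3 the highest. Without it the changes were 1.29 for Fn1, 0.95 for Postn and 0.97 for Vcan, and all kept their calls. Sparc rose by 1.14 ± 0.09 and Tnc differed by 0.21 ± 0.12.

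Genes of the related lists were also called in prKO at 2 months, an age at which 26.0% of all genes were called higher. Of 22 collagen synthesis genes 17 rose and 1 fell (median 0.67), with Plod2, a lysyl hydroxylase, at 1.97 ± 0.21 and Bmp1, a procollagen protease, at 1.80 ± 0.24. Of 42 other matrix genes 23 rose and 1 fell (median 0.31), with Efemp1 at 2.87 ± 0.21 and Smoc2 at 1.40 ± 0.16. Of 23 receptor genes 19 rose and 1 fell (median 0.82), with the integrin genes Itgav at 1.71 ± 0.12 and Itga5 at 1.59 ± 0.22. Of 19 TGF-beta and PDGF genes 15 rose and 0 fell (median 0.64), with Ccn1 at 1.69 ± 0.19 and Ltbp1, a latent TGF-beta binding protein, at 1.55 ± 0.13. The genes that fell were Pcolce2 (-0.27), Fbn2 (-0.37) and Sdc3 (-0.49), named after their values were seen. In the test of the difference between the ages, the signed change was called higher at 2 months in 15.8% of all genes. It was so in 6 of 22 collagen synthesis genes, 5 of 42 other matrix genes, 13 of 23 receptor genes and 7 of 19 TGF-beta and PDGF genes.

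Beside them, 7 of 9 fibroblast and stroma markers rose in prKO at 2 months, with means per array of 7.92 to 8.40 against 6.44 to 6.67 in WT. Over all genes 26.0% were called higher and 22.4% lower. Of the endothelial markers 8 of 9 rose (6.67 to 7.44 against 5.94 to 6.22), of the macrophage markers 9 of 9 (7.49 to 8.22 against 6.53 to 6.77) and of the Leydig cell markers 4 of 5 (10.10 to 10.94 against 8.89 to 9.43). Of 8 myoid and smooth muscle markers 5 rose and 1 fell (7.86 to 8.28 against 7.64 to 8.10). Acta2 stood at 0.81 ± 0.10, and the changes of the list ran from -1.18 to 0.84. Of 10 Sertoli cell markers 6 rose and 2 fell (7.97 to 8.53 against 7.91 to 8.17), and of 10 germ cell markers 1 rose and 6 fell (9.37 to 9.66 against 9.83 to 9.97), with the spermatid gene Prm1 at -1.53 ± 0.34. Of 4 adipose markers 3 rose (5.40 to 8.07 against 5.04 to 5.70), of 3 adrenal cortex markers 2 (5.80 to 7.23 against 4.54 to 4.94) and of 4 epididymis markers 0 (5.11 to 6.93 against 5.03 to 5.55). Their part in the matrix result was not tested.

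In srKO testes 1 matrix gene passed the threshold at 2 weeks. Of the 37 genes 1 rose and 0 fell (6 higher and 2 lower at an unadjusted p under 0.05), where 0.784% of all genes were called higher and 0.0894% lower, and the median change was 0.09. The gene was Col18a1, which read 8.95, 8.96, 8.96 and 8.74 in srKO against 8.09, 8.25 and 8.44 in WT and rose by 0.61 ± 0.08 (1.53-fold, adjusted p = 0.00063), without overlap. Col6a5 had the largest change of the 37 genes in size and read 7.14, 6.65, 6.95 and 6.48 against 7.08, 7.35 and 9.22, a difference of -0.76 ± 0.28 (adjusted p = 0.22) in which 3 of 4 srKO arrays lay below every WT array. With array weights 6 genes rose, where 1110 of all 19007 genes were called higher and 1124 lower, rather than 149 and 17. Without srKO replicate 4, Eln rose too (0.55, adjusted p = 0.021, against 0.39 ± 0.12 with all arrays).

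At 2 months srKO testes had higher collagen IV, laminin and collagen I and III levels, while the crosslinking enzymes and Fbln2, Fbln5 and Fn1 did not pass the threshold. Of the 37 genes 16 rose and 0 fell (16 and 1 at an unadjusted p under 0.05), where 14.7% of all genes were called higher and 10.8% lower. The median change was 0.23, against 0.03 over all genes. By role, 10 of 14 basement membrane genes rose, 3 of 5 fibrillar collagens, 1 of 7 other collagens, 1 of 4 elastic fibre genes, 0 of 2 crosslinking enzymes and 1 of 5 glycoproteins. Without srKO replicate 2, 10 genes rose, of which 8 were basement membrane genes and 0 fibrillar collagens. Against WT replicates 5 to 8 alone 10 rose, with 7 and 0 in those groups.

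Col4a1 read 7.24, 7.90, 7.26 and 7.44 in srKO at 2 months against 6.13, 6.35 and 6.53 in WT and rose by 1.13 ± 0.13 (2.18-fold, adjusted p = 2.7e-06). Col4a2 read 7.51, 7.87, 7.34 and 7.45 against 6.26, 6.42 and 6.69 and rose by 1.12 ± 0.13 (2.17-fold, adjusted p = 2.6e-06). Lamc1 read 7.88, 8.74, 7.81 and 8.05 against 6.82, 7.10 and 7.44 and rose by 1.00 ± 0.17 (2.01-fold, adjusted p = 0.00021). All srKO arrays of these genes lay above all WT arrays. Col18a1 (0.81 ± 0.10), Lama4 (0.77 ± 0.12), Lama1 (0.58 ± 0.12), Nid2 (0.55 ± 0.15), Lamb2 (0.53 ± 0.12), Hspg2 (0.46 ± 0.14) and Lama2 (0.36 ± 0.11) rose too, the last by 0.21 without srKO replicate 2 (adjusted p = 0.14). Hspg2 was also not called without that array (0.39, adjusted p = 0.079). Lamb1 (0.23 ± 0.14) and Lama5 (0.04 ± 0.08) did not pass.

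Nid1 and Col15a1 stood on the other side of WT in srKO at 2 months without passing. Nid1 read 8.48, 8.69, 8.07 and 8.51 against 8.54, 8.77 and 9.03, a difference of -0.32 ± 0.16 (adjusted p = 0.14). Col15a1 read 6.46, 6.93, 6.02 and 6.30 against 6.80, 6.90 and 7.15, a difference of -0.51 ± 0.24 (adjusted p = 0.13). In both genes 3 of 4 srKO arrays lay below every WT array. With array weights both were called lower (adjusted p = 0.037 for Nid1 and 0.01 for Col15a1).

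Of the fibrillar collagens, Col3a1 read 8.26, 8.89, 7.87 and 8.06 in srKO at 2 months against 7.29, 7.42 and 7.99 in WT and rose by 0.79 ± 0.25 (1.73-fold, adjusted p = 0.025). Col1a1 read 9.16, 9.24, 8.44 and 8.65 against 7.75, 8.06 and 8.74 and rose by 0.75 ± 0.23 (1.68-fold, adjusted p = 0.019). Col1a2 read 8.65, 9.04, 8.26 and 8.54 against 7.72, 7.98 and 8.24 and rose by 0.64 ± 0.17 (1.56-fold, adjusted p = 0.0086). Replicate 2 was the highest array in each, and the groups of Col1a2 alone did not overlap. Without it Col3a1 (0.58, adjusted p = 0.14), Col1a1 (0.62, adjusted p = 0.091) and Col1a2 (0.50, adjusted p = 0.058) were not called, and without replicate 1 Col3a1 (adjusted p = 0.055) and Col1a1 (adjusted p = 0.074) were not. Col5a1 differed by 0.27 ± 0.13 and Col5a2 by -0.03 ± 0.19.

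In the remaining groups of srKO at 2 months, Fbln1 read 7.66, 7.51, 7.35 and 7.39 against 6.71, 6.82 and 6.96 and rose by 0.64 ± 0.13 (1.56-fold, adjusted p = 0.00089). Sparc read 11.08, 11.24, 10.92 and 11.11 against 10.16, 10.28 and 10.56 and rose by 0.77 ± 0.08 (1.70-fold, adjusted p = 1.5e-06). Col6a1 read 8.30, 8.51, 8.08 and 8.36 against 7.59, 8.01 and 8.17 and rose by 0.39 ± 0.12 (1.31-fold, adjusted p = 0.02). In Fbln1 and Sparc every srKO array lay above WT, and in Col6a1 3 of 4. The call of Col6a1 was lost without srKO replicate 2 or 4 (adjusted p = 0.094 and 0.053). Lox read 5.77, 5.54, 5.27 and 5.65 against 5.13, 5.47 and 5.95, a difference of 0.07 ± 0.24 (adjusted p = 0.88), and Loxl1 differed by 0.04 ± 0.18. Fbln5 (0.12 ± 0.13), Fbln2 (0.08 ± 0.26), Col12a1 (-0.08 ± 0.26), Fn1 (-0.06 ± 0.27) and Vcan (0.06 ± 0.22) did not pass.

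The related lists followed in part. In srKO at 2 weeks 0 of 22 collagen synthesis genes, 0 of 42 other matrix genes and 0 of 23 receptors rose by limma (3, 1 and 1 at an unadjusted p under 0.05), and 1 of 19 TGF-beta and PDGF genes rose, Tgfb1 (0.38 ± 0.07). At 2 months 14.7% of all genes were called higher in srKO and 10.8% lower. Of 22 collagen synthesis genes 6 rose, with Plod2 at 1.37 ± 0.19 and Bmp1 at 0.86 ± 0.22. Of 42 other matrix genes 10 rose, with Tgm2, a transglutaminase that crosslinks proteins, at 1.20 ± 0.15 and Efemp1 at 0.76 ± 0.19. Of 23 receptors 13 rose, led by the collagen receptors Ddr1 (1.14 ± 0.13) and Ddr2 (1.01 ± 0.14). Of 19 TGF-beta and PDGF genes 11 rose, with Ccn1 at 0.72 ± 0.17. The platelet-derived growth factor gene Pdgfc fell (-0.81), as did Pcolce2 (-0.36) and Sdc3 (-0.33), the last pair named after their values were seen.

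Markers that moved beside the matrix genes in srKO at 2 months were 7 of 9 for macrophages, which rose (7.32 to 7.85 per array against 6.53 to 6.77 in WT), 6 of 9 for endothelium (6.44 to 6.76 against 5.94 to 6.22), 4 of 9 for fibroblasts and stroma (6.69 to 7.34 against 6.44 to 6.67) and 3 of 5 for Leydig cells (9.60 to 10.20 against 8.89 to 9.43). Over all genes 14.7% were called higher and 10.8% lower. Of 8 myoid and smooth muscle markers 2 rose and 1 fell (7.71 to 7.93 against 7.64 to 8.10), and of 10 Sertoli cell markers 3 rose and 2 fell (8.07 to 8.20 against 7.91 to 8.17). Of 10 germ cell markers 1 rose and 3 fell (9.04 to 9.83 against 9.83 to 9.97), with Prm1 at -2.33 ± 0.31. Of 3 adrenal cortex markers 1 rose (5.16 to 5.49 against 4.54 to 4.94), and of 4 adipose markers 0 (5.06 to 5.45 against 5.04 to 5.70). Their part in the matrix result was not tested.

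In lrKO testes no matrix gene passed the threshold. At 2 weeks 0 of 37 rose and 0 fell by limma (1 higher and 0 lower at an unadjusted p under 0.05), where 0.0368% of all genes were called higher and 0.0631% lower, and the changes lay between -0.37 and 0.25. At 2 months 0 rose and 0 fell (0 and 1 at an unadjusted p under 0.05), where 0.110% were called higher and 0.0737% lower, and the changes lay between -0.34 and 0.09. Lamb2 read between 9.90 and 10.06 in the 4 lrKO arrays at 2 weeks against 9.68, 9.73 and 9.90 in WT, a difference of 0.25 ± 0.07 (adjusted p = 0.26). Nid2 read 6.39, 6.32, 6.44 and 6.66 at 2 months against 6.47, 6.64 and 7.37, a difference of -0.34 ± 0.15 (adjusted p = 0.57). By their unrounded values 4 of 4 lrKO arrays of Lamb2 lay above every WT array, and 3 of 4 of Nid2 lay below every one. Both genes were named after their values were seen. None of the 81 settings run on the lrKO counts called a member.

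The lines were also compared with each other, in the fit of all 4 genotypes of an age, so that the WT arrays entered the estimate of the spread. At 2 weeks 19 of 37 genes were higher in prKO than in srKO and 0 lower (24 and 0 at an unadjusted p under 0.05), where 6.90% of all genes were called higher and 4.85% lower. Against lrKO 23 were higher and 0 lower, where 10.4% of all genes were called higher and 6.00% lower. Col6a5 differed most from srKO (2.86 ± 0.33, adjusted p = 1.2e-05), followed by Col12a1 (1.68 ± 0.42, adjusted p = 0.013) and Lox (1.51 ± 0.31, adjusted p = 0.0033). All 5 fibrillar collagens were higher in prKO than in srKO, by 0.66 to 0.95, but 4 of 14 basement membrane genes: Col15a1, Col4a1, Col4a2 and Lamb2. Col18a1 differed by -0.08 ± 0.09 (adjusted p = 0.63). The call of Lamb2 was lost without any of 4 single arrays (prKO replicates 1 and 2, srKO replicates 3 and 4) and that of Col1a1 without any of 5 (prKO replicates 1 and 4, srKO replicates 2, 3 and 4), at adjusted p-values of 0.081 to 0.11 and 0.051 to 0.07. Col5a2 was not called without prKO replicate 1 or 4 or srKO replicate 4 (adjusted p = 0.05 to 0.058), Col12a1 without prKO replicate 4 (adjusted p = 0.055) and Col6a2 without prKO replicate 1 (adjusted p = 0.052).

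At 2 months 27 of 37 genes were higher in prKO than in srKO and 0 lower (31 and 0 at an unadjusted p under 0.05), where 13.4% of all genes were called higher and 12.1% lower. Against lrKO 32 were higher and 0 lower, where 25.4% of all genes were called higher and 20.1% lower. Lox differed from srKO by 2.25 ± 0.30 (adjusted p = 9.2e-05), Fbln2 by 2.16 ± 0.33 (adjusted p = 0.00026), Col12a1 by 2.09 ± 0.32 (adjusted p = 0.0003), Fn1 by 2.03 ± 0.34 (adjusted p = 0.00047) and Fbln5 by 1.43 ± 0.16 (adjusted p = 1.5e-05). The collagen IV chains differed by 0.50 ± 0.16 (adjusted p = 0.029) for Col4a1 and 0.40 ± 0.16 (adjusted p = 0.071) for Col4a2, and Lamc1 by 0.46 ± 0.22 (adjusted p = 0.13). Without prKO replicate 3 the number higher than in srKO was 17. The genes not called then were Col4a1 (0.30, adjusted p = 0.23), Col18a1, Lamb2, Hspg2, Col5a1, Col6a2, Col6a3, Eln, Loxl1 and Sparc, whereas Fbln2 (1.44, adjusted p = 6.3e-06) and Fn1 (1.35, adjusted p = 0.0004) kept their calls. So did Col1a1 (0.81 rather than 1.30), Col3a1 (1.10 rather than 1.68), Col5a2 (0.59 rather than 1.09), Nid1 (0.65 rather than 1.00), Postn (1.11 rather than 1.79) and Vcan (0.91, lower than with all arrays). In the comparison with lrKO the values without prKO replicate 3 were 0.38 for Col5a1 (0.71 with all arrays), 0.83 for Col5a2 (1.32), 0.43 for Nid1 (0.77), 1.30 for Col12a1 (1.97), 0.61 for Loxl1 (1.05), 1.26 for Postn (1.94) and 0.98 for Vcan (1.57), all past the threshold. Without srKO replicate 2, Col4a2 (0.51, adjusted p = 0.025), Lamc1 (0.67, adjusted p = 0.016), Lama4 and Col15a1 were called as well, which made 31. A fit of these groups alone called 8 genes, and over all 19007 genes it called 705 higher rather than 2556.

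Fibrillar collagens and basement membrane genes were set beside each other within each array by their means, each gene taken relative to the WT mean at its age. In prKO at 2 weeks the fibrillar mean was 0.80 ± 0.22 (SD, n = 4) and the basement membrane mean 0.39 ± 0.15 (SD, n = 4), so the fibrillar genes stood 0.41 ± 0.09 higher (SD, n = 4), or 0.31 to 0.51 per array. WT arrays at 2 weeks ranged from -0.27 to 0.38, and replicate 4, the highest, was the only one to overlap prKO. In prKO at 2 months the fibrillar genes stood 0.66 ± 0.41 higher (SD, n = 3), or 0.35 to 1.13 per array, against -0.20 to 0.21 in WT. Without replicate 3 this difference was 0.43. In srKO it was -0.11 ± 0.05 at 2 weeks and 0.00 ± 0.11 at 2 months (SD, n = 4 each), where both means were 0.48. In lrKO it was -0.02 ± 0.08 and -0.10 ± 0.08 (SD, n = 4 each). No test was run on these means, because the genes were listed with earlier results known.

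**Figure D4:**
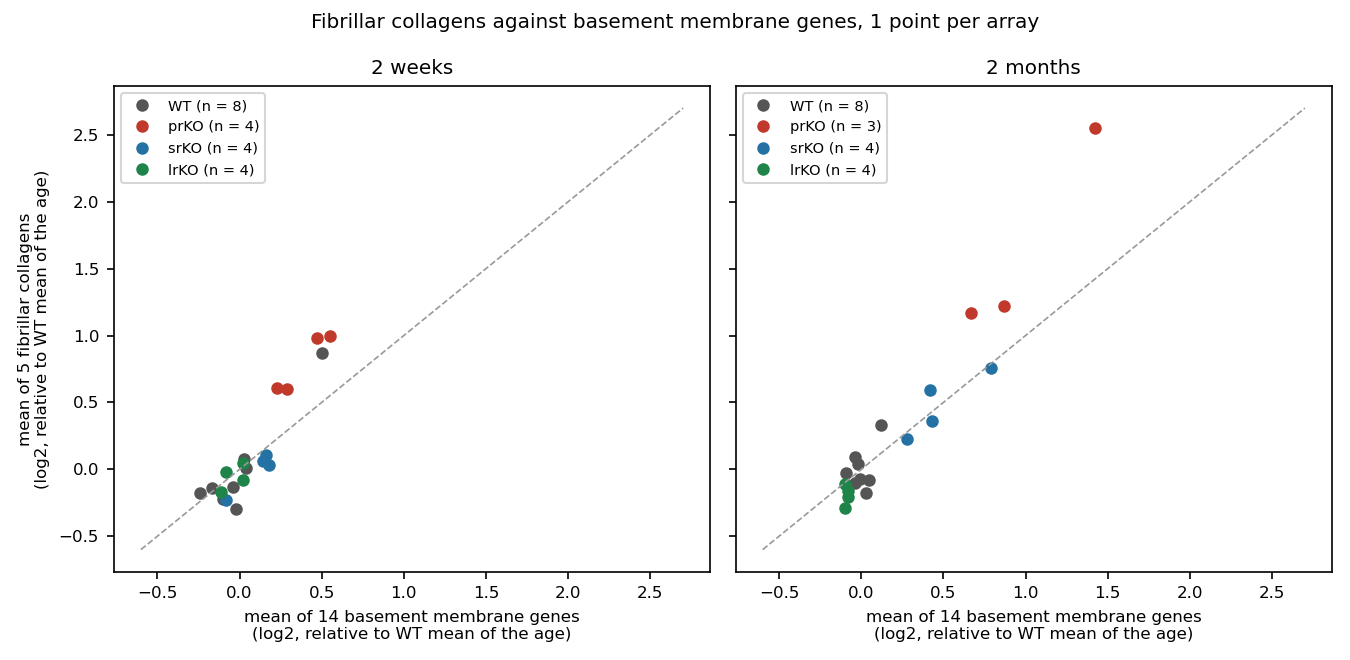
Mean log2 level of the 5 fibrillar collagens against that of the 14 basement membrane genes in each array, both relative to the WT mean of the age, with the 2 ages in separate panels; each point is 1 mouse and the dashed line marks equal values. The prKO arrays lie above the line, by 0.31 to 0.51 at 2 weeks and 0.35 to 1.13 at 2 months, and the srKO arrays at 2 months lie -0.08 to 0.17 from it.

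Of the 37 genes, 3 pairs are neighbours in the RefSeq gene order: Col4a1 and Col4a2 on chromosome 8, Col6a2 and Col6a1 on chromosome 10, and Col3a1 and Col5a2 on chromosome 1. The collagen IV genes lie head to head, and in prKO Col4a1 and Col4a2 changed by 1.02 and 0.85 at 2 weeks and by 1.62 and 1.52 at 2 months. Their srKO values at 2 months were 1.13 and 1.12. Col6a2 and Col6a1 changed by 0.81 and 1.72 in prKO at 2 months, and Col3a1 and Col5a2 by 2.47 and 1.06. In srKO at 2 months the values of Col3a1 and Col5a2 were 0.79 and -0.03, of which the first passed the threshold. The differences within pairs were not tested.

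In WT testis the matrix genes were far lower at 2 months than at 2 weeks. Of the 37 genes 36 fell and 0 rose, where 55.0% of all genes were called lower and 26.7% higher, and the median change was -1.91 against -0.24 over all genes. Eln changed most, from a mean of 9.43 to 6.14 (-3.30 ± 0.12, adjusted p = 8.3e-24). Col1a1 (-3.26 ± 0.17), Col3a1 (-3.22 ± 0.18) and Col1a2 (-3.19 ± 0.13) fell by more than Col5a1 (-1.39 ± 0.12) and Col5a2 (-1.72 ± 0.18), a difference between genes that was not tested. The 14 basement membrane genes all fell, with a median of -1.94 and a range from -2.53 (Lamb1) to -0.63 (Col15a1). Col12a1 did not pass (-0.47 ± 0.27, adjusted p = 0.11), and the call of Col8a1 (-0.26) was lost under 4 of the alternatives run. Without WT replicate 4 at 2 weeks the change of Tnc was -0.34 rather than -0.54. Somatic markers fell beside the matrix genes: 9 of 9 for fibroblasts and stroma (median -1.94), 9 of 10 for Sertoli cells (-1.60), 8 of 9 for endothelium (-0.60) and 8 of 9 for macrophages (-0.61). Of 8 myoid and smooth muscle markers 7 fell and 1 rose (median -1.41), and of 10 germ cell markers 6 rose and 4 fell. Spermatid RNA appears between these ages, Prm1 going from a WT mean of 6.19 to 11.59. The part of these cell types in the lower matrix levels was not tested.

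In prKO at 2 months the mean was still below that of WT at 2 weeks in 32 of 37 genes. The others, named after their values were seen, were Col6a5 (8.92 against 7.57), Col12a1 (8.68 against 7.13), Fbln2 (8.29 against 6.80), Vcan (6.61 against 6.13) and Lox (7.81 against 7.68). Without prKO replicate 3 the number below was 34, since the means of Vcan (6.02) and Lox (7.20) then lay below WT at 2 weeks. Without WT replicate 4 it was 31, since Postn (8.33) then lay above WT (8.06). This comparison was not tested.

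Whether the change of a line differed between the ages was tested in 1 fit of all 8 groups. Over all genes, the signed change of prKO was called higher at 2 months in 15.8% and lower in 12.3%. Of the 37 genes, 17 were called higher and 0 lower (19 and 0 at an unadjusted p under 0.05). They included the laminin genes Lama1 (1.35 ± 0.16, adjusted p = 6.8e-08), Lamc1 (1.18 ± 0.23, adjusted p = 0.00013) and Lamb1 (1.10 ± 0.21, adjusted p = 9.6e-05), and Col3a1 (1.73 ± 0.33, adjusted p = 0.00012), Col1a1 (1.29 ± 0.30, adjusted p = 0.0011), Fn1 (1.72 ± 0.33, adjusted p = 0.00014) and Fbln2 (1.39 ± 0.34, adjusted p = 0.0016). Without prKO replicate 3 at 2 months the values were 1.15 for Col3a1, 0.81 for Col1a1, 1.03 for Fn1 and 0.67 for Fbln2, all still past the threshold. Col4a2 (0.66 ± 0.17) and Hspg2 (0.82 ± 0.20) then stood at 0.43 and 0.52 (adjusted p = 0.047 and 0.043). Col4a1 (0.60 ± 0.19) lost its call without that array (0.40, adjusted p = 0.14), and Col15a1 (-0.53 ± 0.31 with all arrays) was called in the other direction without it (-1.13, adjusted p = 0.00054). Lox was called without replicate 2 (1.11, adjusted p = 0.042). Fbln5 (0.24 ± 0.20), Col6a5 (0.24 ± 0.37), Col5a1 (-0.03 ± 0.22), Loxl1 (-0.05 ± 0.23), Lox (0.70 ± 0.40) and Col12a1 (0.39 ± 0.49) did not pass, the last pair with the widest errors of these.

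Over all genes, the signed change of srKO was called higher at 2 months in 8.49% and lower in 8.76%. Of the 37 genes, 10 were called higher and 0 lower (15 and 1 at an unadjusted p under 0.05). Col6a5 was among the 10, although its srKO mean lay below WT at 2 weeks (6.80 against 7.57) and above it at 2 months (6.92 against 6.58). Its change against WT was called at neither age, and the WT mean at 2 weeks includes replicate 4, at 9.22. Sparc (0.83 ± 0.10, adjusted p = 1.3e-07), Col4a2 (0.90 ± 0.16, adjusted p = 8.7e-05), Col4a1 (0.87 ± 0.18, adjusted p = 0.00051) and Lamc1 (0.92 ± 0.22, adjusted p = 0.0024) had the smallest adjusted p-values. The number called was 4 without srKO replicate 4 at 2 weeks, 4 without srKO replicate 2 at 2 months and 3 against WT replicates 5 to 8 alone. For lrKO the signed change was higher at 2 months in 0 genes and lower in 0 by limma (0 and 0 at an unadjusted p under 0.05), where 0.0526% of all genes were called higher and 0.0474% lower.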

How the data were processed

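RNA of whole testis from 39 mice was measured on Affymetrix arrays, 1 array per mouse, in 8 groups of genotype and age taken from the sample titles. The deposited values are intensities of probe sets on a log2 scale, which the authors made with robust multi-array average (RMA), per the submitters' processing notes. RMA uses quantile normalization, which gives all arrays nearly the same distribution of values, so a shift shared by most genes is removed. For the RMA version and the authors' annotation, the sources used here give nothing, and the deposited values ran from 2.54 to 13.62. No counts underlie an array, and the number of mice limits the precision.

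Of 41345 probe sets, 23521 carried 1 gene symbol in the platform annotation, 1814 several and 16010 none. Those with 1 symbol gave 22180 genes, of which 1082 had several probe sets and took the one with the highest mean over all arrays. Dim genes were dropped: 19007 genes with a mean above 4.62, the 25th percentile over the whole table, in 1 or more groups were kept for the tests. Comparisons within an age came from 1 limma fit of the 4 genotypes of that age (lmFit and eBayes, limma 3.58.1, R 4.3.3), and comparisons across ages from 1 fit of all 8 groups. Tests were two-sided, p-values were adjusted by the Benjamini-Hochberg method over all genes tested, and the threshold was 0.05. Tables and figures were made with Python 3.11.15, pandas 2.3.3 and matplotlib 3.10.9.

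The 39 listed symbols, the related lists and the alternatives were chosen with earlier results of these data known. Values in every array were given for up to 3 members per role group with the largest change in a comparison, and up to 2 with the opposite sign. Of the related lists, up to 3 called genes per list with the largest change were named for prKO at 2 weeks and up to 2 elsewhere. Alternatives were another filter or none, the average of probe sets, centring, array weights, other fits, WT subsets, a replicate block, leaving out arrays high in Adam7 and leaving out each array in turn. Replicate numbers were shared between groups, and 8 of 45 same-numbered pairs of arrays had deviations correlated above 0.1 (-0.62 to 0.44), so the numbers were not used as pairs. The fit was tested on simulated data for prKO and WT at 2 weeks over 19007 genes. There 96 of 100 genes with a log2 change of 1 in size and 72 of 100 with 0.5 were recovered, with 9 false calls. The simulated errors were drawn independently for each gene and array. Deviations that many genes of an array share, as in WT replicate 4, were therefore not part of it. Promoter sequences came from the RefSeq table for GRCm38.p6.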

Additional observations from a re-analysis of the deposited data

Results flagged for a closer look

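Of 259 groups of 4 to 10 arrays looked at (1 gene in 1 group each), 34 held an array separated from the rest by more than the critical value of Dixon's test at the 95% level, where chance gives about 1 in 20, or 12.9. In 19 of the 34 the array was WT replicate 4 at 2 weeks, the highest of 8. Its levels, each against the next highest WT array, were Col1a1 (12.16 against 11.45), Col1a2 (11.92 against 11.23), Col3a1 (11.62 against 10.74), Col5a1 (9.14 against 8.38), Col4a1 (8.97 against 8.42), Col4a2 (8.87 against 8.55) and Lama4 (9.02 against 7.90). They were also Lama5 (7.81 against 7.28), Nid1 (11.30 against 10.69), Hspg2 (10.14 against 9.65), Col6a1 (11.27 against 10.44), Col6a2 (9.96 against 9.17) and Col6a3 (9.90 against 8.92), and Col6a5 (9.22 against 7.70), Col12a1 (8.92 against 7.04), Fbln2 (7.51 against 7.00), Lox (8.98 against 7.80), Tnc (7.64 against 6.36) and Vcan (8.05 against 6.34). The 8 myoid and smooth muscle markers of that array had a mean 1.37 above the WT mean, and their part in this was not tested.

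The other 15 arrays and genes are given with the nearest other array of the group. Replicate 1 of WT at 2 months had the highest level of Col8a1 (6.42 against 5.96) and the lowest level of Loxl1 (7.01 against 7.34). Replicate 3 of WT at 2 months had the lowest level of Eln (5.50 against 6.08). Replicate 7 of WT at 2 months had the highest level of Col3a1 (7.99 against 7.55). Replicate 3 of lrKO at 2 weeks had the highest level of Nid1 (10.57 against 10.48) and Sparc (11.53 against 11.45). Replicate 4 of lrKO at 2 weeks had the highest level of Lama4 (7.54 against 7.51), Lama5 (7.14 against 7.05) and Col8a1 (6.53 against 6.11) and the lowest level of Lamc1 (9.28 against 9.49) and Vcan (5.29 against 6.27). Replicate 1 of prKO at 2 weeks had the highest level of Col18a1 (9.01 against 8.78). Replicate 1 of srKO at 2 weeks had the highest level of Sparc (11.53 against 11.44). Replicate 4 of srKO at 2 weeks had the lowest level of Lamc1 (9.43 against 9.66) and Col18a1 (8.74 against 8.95).

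The change against WT differed between the ages by the interaction term of the limma fit (adjusted p under 0.05) in 17 genes for prKO and 10 for srKO. The values are the change at 2 months minus that at 2 weeks. For prKO they were Col1a1 (1.29), Col1a2 (1.14), Col3a1 (1.73), Col4a1 (0.60), Col4a2 (0.66), Lama1 (1.35), Lama2 (0.44), Lama5 (0.43) and Lamb1 (1.10), and Lamb2 (0.74), Lamc1 (1.18), Hspg2 (0.82), Col18a1 (0.76), Col6a1 (1.03), Fbln2 (1.39), Fn1 (1.72) and Sparc (0.75). For srKO they were Col1a2 (0.69), Col3a1 (0.90), Col4a1 (0.87), Col4a2 (0.90), Lama1 (0.48), Lama2 (0.53), Lamc1 (0.92), Col6a5 (1.10), Fbln1 (0.61) and Sparc (0.83).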

How the results depend on the processing

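No change of the 37 genes reversed its sign past the threshold under any alternative run. With 1 array left out, 6807 values kept their side of the threshold, 34 passed it and 115 lost it; under the other alternatives 4989 kept it, 77 passed and 114 lost it. The number called in prKO at 2 weeks was 23, and 11 with the replicate block, where 0 of 5 fibrillar collagens were called, 14 against WT replicates 1 to 4 alone, 22 to 30 with 1 array left out and 30 without 2 arrays that stand apart (WT replicate 4 at 2 weeks and prKO replicate 1 at 2 months), an alternative chosen after seeing the data. In srKO at 2 weeks it was 1, and 6 with array weights (where 1110 of 19007 genes were called higher) and 1 to 2 with 1 array left out. In srKO at 2 months it was 16, and 10 against WT replicates 5 to 8 alone, 12 with the block and 10 to 16 with 1 array left out. Between prKO and srKO at 2 months it was 27, and 8 in a fit of those groups alone (where 705 of 19007 genes were called higher), 23 with the block and 17 to 31 with 1 array left out. The age interaction of srKO called 10, and 6 after centring, 3 against WT replicates 5 to 8, 8 with the block and 4 to 12 with 1 array left out. With 1 array left out the other counts were 29 to 33 for prKO at 2 months, 15 to 19 for prKO against srKO and 20 to 24 for prKO against lrKO at 2 weeks, 32 to 33 for prKO against lrKO at 2 months, and 15 to 17 for the age interaction of prKO. The fibrillar minus basement membrane difference of prKO at 2 months, 0.66, was 0.43 to 0.82 with 1 array left out. The cause of these shifts was not tested.

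Centring lowered the share of called genes, over all genes tested, that were higher by over 10 percentage points in 8 of the 14 comparisons. In the other 6 it moved by less, up in 5 and down in 1 (srKO at 2 months). For prKO against WT it went from 75.3% to 62.4% at 2 weeks and from 53.7% to 38.0% at 2 months. Against srKO it went from 58.7% to 35.5% and from 52.6% to 34.0%, and against lrKO from 63.4% to 51.3% and from 55.8% to 39.1%. For the age interactions it went from 56.3% to 42.0% in prKO and from 49.2% to 32.8% in srKO.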
